A study of Rattus norvegicus with 8 samples.

Results

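Zinc finger protein genes were examined in rat retinal ganglion cells (RGCs), the neurons that carry visual information from the retina to the brain. The set held every gene whose symbol begins with Zfp, Znf or Zbtb followed by a digit, or with Zscan or Zkscan, whatever its counts. Symbols could be paired with 1998 of the 32623 Ensembl gene IDs in the count files, those with the lowest ID numbers, and 32 of these 1998 genes met the rule. Zinc finger genes among the other IDs were not analysed here. RGCs of Sprague Dawley rats were purified by immunopanning, first against macrophages and then for Thy1, at embryonic day 21 (E21) and at postnatal day 11 (P11). The labels name no transgene and no treatment. Each of the 4 libraries per stage came from a litter of its own, all were sequenced after depletion of ribosomal RNA, and reads were counted per gene.

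Most zinc finger proteins of this kind bind DNA through a row of short loops, each held by a zinc ion between a pair of cysteines and a pair of histidines. What they do once bound depends on a second domain. Proteins with a KRAB domain recruit the corepressor Trim28 and the machinery that writes silent chromatin, the SCAN domain lets proteins pair with each other, and the BTB domain of the Zbtb proteins forms dimers and recruits corepressors. The 32 genes were divided by what is known of their orthologs into 7 BTB genes, 6 genes with SCAN and KRAB domains, 9 with KRAB and no SCAN domain, and 10 others. No protein sequences were used to check this division.

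The RNA of these genes was, on balance, higher in E21 than in P11 RGCs. Levels are given in CPM, which are read counts brought to the same library size with the TMM method of edgeR. Each log2 fold change, or log2 ratio, divides the E21 level by the P11 level, so that it is positive where E21 is higher, and is followed by ± its standard error (SE). All 32 genes had enough counts for the test, with at least 41 counts in every library. At an adjusted p below 0.01 (quasi-likelihood test of edgeR, Benjamini-Hochberg adjusted over 14043 genes), 18 of the 32 were higher at E21, against 33.8% of all genes tested, and 2 were higher at P11, against 34.6%. In shares, these were 56.2% and 6.25% of the 32 genes. With a log2 fold change beyond 1 required as well, 5 were higher at E21, against 8.16% of all genes, and 1 was higher at P11, against 16.5%. The 5 were Zbtb12, Zbtb39, Zfp316, Zfp821 and Zfp358, and the 1 was Zfp365. Among the 9549 genes tested whose mean CPM lay in the range of the 32 genes, 36.0% were higher at E21 and 33.5% at P11 at the adjusted p alone, and 7.41% and 13.0% with the fold threshold. The median log2 fold change was 0.25 over the 32 genes, 0.00 over all genes tested and 0.03 over genes of that range. These are counts and medians of a list and carry no test of their own. Of the 14043 genes tested, 1779 had a symbol and could have been members. Shares over these 1779 genes alone are not given here.

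**Figure D1:**
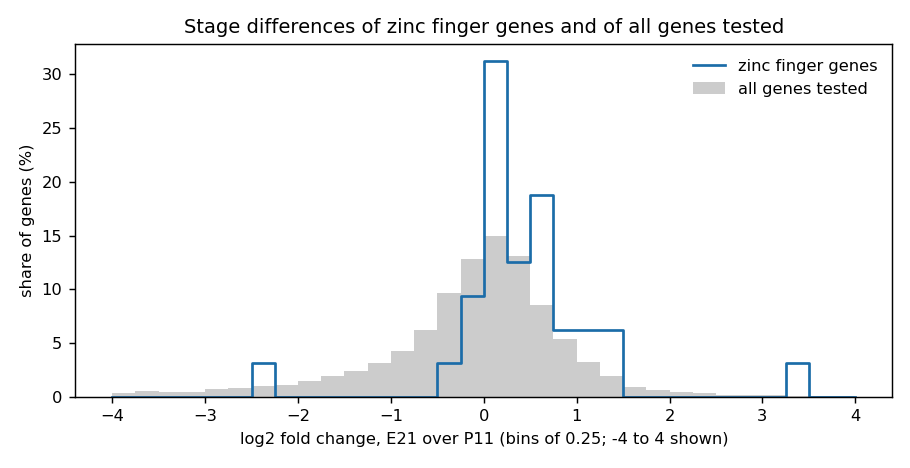
Share of genes (%) by log2 fold change, E21 over P11, in bins of 0.25 between -4 and 4, for all 14043 genes tested (grey bars) and for the 32 zinc finger genes (blue line). The zinc finger genes lie mostly at and above 0, with Zfp365 alone far to the left at -2.46 and Zbtb12 alone far to the right at 3.30.

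Markers of the retina's cell types were examined in the panned cells. Between 13899299 and 20116017 reads were counted per library, and no difference in depth between the stages was detected (two-sided exact permutation test over 4 libraries a stage, p = 0.543). Gap43, a growth cone protein gene, lay between 1660 and 1767 CPM at E21 and between 594 and 658 CPM in P11 cells, and the neuronal gene Rbfox3 between 115 and 136 CPM in all libraries. The defining RGC genes Rbpms and Pou4f1 were not among the named genes, so the label was checked here on general neuronal genes only. The study itself reports both as highly enriched over markers of other retinal cell types. The summed level of 3 vascular and mural cell genes (Flt1, Rgs5 and Notch3) was 3.04 to 4.90 CPM at E21 and 275 to 548 CPM in P11 cells, and all 3 passed both thresholds as higher at P11. The summed level of 3 photoreceptor genes (Rcvrn, Pde6b and Arr3) was 4.76 to 6.43 CPM at E21 and 11.4 to 18.9 CPM in P11 cells. Of these, Pde6b passed both thresholds as higher at P11, at 0.123 ± 0.115 and 6.52 ± 1.77 CPM (SD, n = 4). Rcvrn was 1.80-fold higher at P11, and Arr3 did not pass. The sum of 4 bipolar cell genes (Grm6, Prkca, Pcp2 and Lhx4) was 41.4 to 49.0 and 87.3 to 94.5 CPM. It came mostly from Prkca, at 38.3 ± 2.68 and 87.5 ± 3.23 CPM (SD, n = 4). In contrast, Grm6 was 1.77-fold higher at E21 and Lhx4 had all E21 libraries above all P11 libraries. The sum of 2 microglial genes (Ptprc and Aif1) was below 1 CPM in every library. That of 3 genes of astrocytes and Müller cells (Gfap, S100b and Sox9) was 0.669 to 0.861 CPM and 1.15 to 2.62 CPM, with S100b higher at P11, at 0.0294 ± 0.0346 and 1.64 ± 0.624 CPM, while Sox9 had all E21 libraries above all P11 libraries. That of 3 amacrine and horizontal cell genes (Gad1, Prox1 and Pax6) was 427 to 444 CPM and 316 to 325 CPM, mostly from Pax6, at 432 ± 8.02 and 305 ± 6.09 CPM. Gad1 went the other way, from 0.856 ± 0.280 to 13.8 ± 3.40 CPM, and passed both thresholds as higher at P11. Prox1 passed both as higher at E21, at 5.97 ± 0.518 and 2.63 ± 0.296 CPM. The study names Pax6 among the factors that regulate RGC differentiation, so the sum of these 3 genes is not particular to amacrine and horizontal cells. The level of Pdgfra, a gene of the oligodendrocyte lineage, was 10.5 to 14.9 CPM and 5.04 to 6.27 CPM, and Pdgfra passed both thresholds as higher at E21. Atoh7, a gene of newly forming RGCs, was below 1 CPM in every library. None of these markers was at 0 counts in all libraries. The part of these cells in the differences between stages was not tested. In these bulk samples, fewer cells that express a gene and less of its RNA per cell cannot be told apart.

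The sequence just before the start of each of the 6 genes past both thresholds is shown, so that the promoters of the genes that differed most can be read side by side. Each line holds the 250 bases upstream of the gene's annotated start in RefSeq on the build GRCr8, 5′ to 3′ on the strand of the gene. The counts themselves were made on Rnor_6.0. Capitals mark each match, on either strand, to one of the 10 short motifs named after the sequences. The stretches lie at chr20:3945149-3945398 on the minus strand for Zbtb12, chr7:65462005-65462254 on the plus strand for Zbtb39, chr12:16408140-16408389 plus for Zfp316, chr19:54589947-54590196 plus for Zfp821, chr12:6350016-6350265 plus for Zfp358 and chr20:20664872-20665121 plus for Zfp365.
Zbtb12: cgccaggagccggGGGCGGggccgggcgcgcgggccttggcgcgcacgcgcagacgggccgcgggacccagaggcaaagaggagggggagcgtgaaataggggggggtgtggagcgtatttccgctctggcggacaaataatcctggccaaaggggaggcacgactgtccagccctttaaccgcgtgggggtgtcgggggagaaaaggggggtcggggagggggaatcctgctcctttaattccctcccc
Zbtb39: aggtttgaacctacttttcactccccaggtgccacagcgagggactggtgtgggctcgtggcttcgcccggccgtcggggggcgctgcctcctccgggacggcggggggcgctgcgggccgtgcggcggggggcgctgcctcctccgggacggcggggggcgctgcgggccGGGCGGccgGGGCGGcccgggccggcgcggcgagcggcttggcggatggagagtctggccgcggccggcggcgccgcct
Zfp316: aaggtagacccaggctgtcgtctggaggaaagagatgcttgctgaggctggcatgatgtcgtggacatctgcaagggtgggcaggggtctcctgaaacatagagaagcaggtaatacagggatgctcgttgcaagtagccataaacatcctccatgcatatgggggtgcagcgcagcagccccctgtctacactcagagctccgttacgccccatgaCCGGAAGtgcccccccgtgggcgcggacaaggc
Zfp821: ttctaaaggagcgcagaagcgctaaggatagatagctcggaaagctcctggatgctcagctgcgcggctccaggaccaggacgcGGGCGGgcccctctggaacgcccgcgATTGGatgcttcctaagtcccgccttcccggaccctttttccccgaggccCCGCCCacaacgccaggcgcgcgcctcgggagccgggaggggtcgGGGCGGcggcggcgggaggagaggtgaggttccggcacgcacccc
Zfp358: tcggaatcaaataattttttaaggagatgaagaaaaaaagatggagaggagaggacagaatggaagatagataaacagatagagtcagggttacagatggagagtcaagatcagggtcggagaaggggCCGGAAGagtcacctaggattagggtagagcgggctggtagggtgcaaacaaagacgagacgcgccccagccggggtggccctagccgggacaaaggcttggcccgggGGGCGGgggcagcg
Zfp365: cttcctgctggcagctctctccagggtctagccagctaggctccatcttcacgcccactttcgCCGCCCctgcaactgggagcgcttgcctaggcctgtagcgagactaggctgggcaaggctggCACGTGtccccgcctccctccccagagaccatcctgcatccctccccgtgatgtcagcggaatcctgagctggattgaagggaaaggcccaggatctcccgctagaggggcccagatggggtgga

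The 6 promoters were rich in G and C, from 54.4% in Zfp358 to 80.4% in Zbtb39, and held between 10 and 38 CG steps each. For comparison, the median was 57.0% over the promoters of the 27 zinc finger genes that had one in the table and 51.2% over all 33469 promoters. The median number of CG steps was 12.5 and 5 in these sets. Of the motifs below, the CRE, E box, ETS, YY1, NRF1 and GC box hold a CG step themselves. The part of CG content in their shares was not tested. The CRE, the palindrome TGACGTCA bound by CREB, was in none of the 27 genes' promoters and in 1.78% of the 27457 genes with one. The E box CACGTG was in 5 of 27 (18.5%, against 6.18% of all), among them Zfp365, and the ETS motif CCGGAAG in 5 (18.5%, against 8.11%), among them Zfp316 and Zfp358. The YY1 motif AAGATGGCG was in 3 (11.1%, against 0.768%), Zfp157, Zfp207 and Zfp68, and the NRF1 motif GCGCATGCG in 1 (3.70%, against 1.54%), Zfp286a. The GC box GGGCGG was in 13 (48.1%, against 33.5%), among them all of the 6 but Zfp316. The CCAAT box was in 10 (37.0%, against 36.1%), among them Zfp821, the AP-1 motif TGANTCA in 2 (7.41%, against 6.99%), the ROR motif AGGTCA in 2 (7.41%, against 14.8%) and the MEF2 motif CTAAAAATA in none (against 0.495%). Both strands were searched, and no motif is contained in another. These matches describe letters in a window and were not tested.

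Zbtb12 (ENSRNOG00000000418), a BTB zinc finger gene, had the largest difference. Its RNA was at 190, 188, 195 and 191 CPM in the E21 libraries and at 16.1, 18.5, 20.4 and 22.0 CPM in the P11 libraries. The E21 libraries lay close together and far above every P11 library. The means were 191 ± 2.81 CPM and 19.2 ± 2.57 CPM (SD, n = 4), with a log2 fold change of 3.30 ± 0.07 SE (adjusted p = 1.49e-15, edgeR), or 9.88-fold higher at E21. Of all 14043 genes tested, 0.313% had a higher log2 fold change. Zbtb12 overlaps the complement gene C2 in RefSeq on GRCr8, and reads of the pair may have been assigned to either or dropped, since the strand setting of the counting was not given in the sources used here.

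Zfp365 (ENSRNOG00000000638) was the only member past both thresholds in the other direction. Its product, also called DBZ, binds the scaffold protein Disc1 and is known for a role in neurite and glial development rather than as a DNA-binding factor. Its RNA was at 7.16, 7.04, 6.45 and 5.27 CPM at E21 and at 38.2, 37.6, 35.5 and 32.3 CPM in P11 cells. All P11 libraries stood above all E21 libraries, and P11 replicate 4 was the lowest of its stage. The log2 fold change was -2.46 ± 0.09 SE (adjusted p = 3.32e-13, edgeR), or 5.49-fold higher at P11. The sums of the vascular genes in the same P11 libraries were 366, 456, 275 and 548 CPM, and their part in the difference was not tested.

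**Figure D2:**
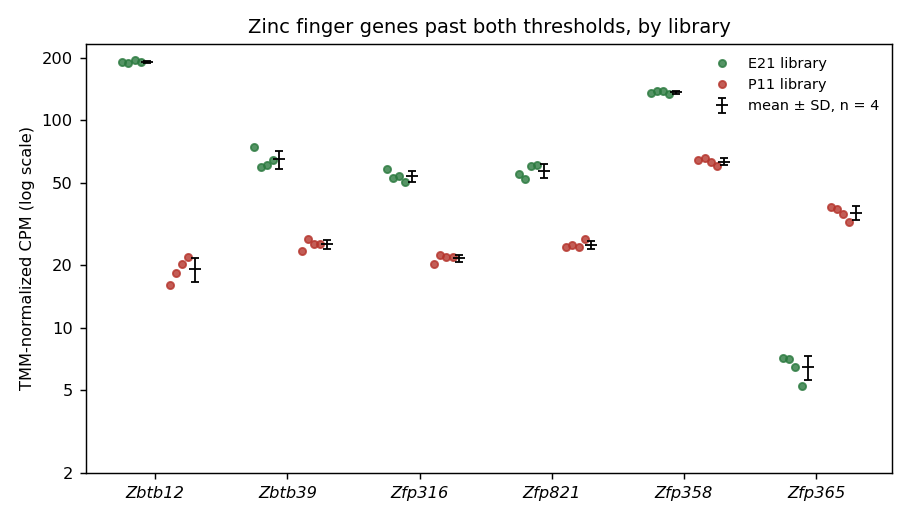
TMM-normalized CPM on a log scale for the 6 zinc finger genes past both thresholds, with 1 point for each E21 library (green) and P11 library (red) and the mean ± SD of 4 libraries in black. The libraries of the stages are separate for each gene, with Zbtb12 falling from about 191 to 19.2 CPM and Zfp365 rising from 6.48 to 35.9 CPM.

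The 4 other genes past both thresholds were higher at E21 by between 2.16-fold and 2.56-fold. Zbtb39 (ENSRNOG00000004306), a further BTB gene, was at 74.4, 59.7, 61.1 and 64.1 CPM at E21 and at 23.5, 26.8, 25.3 and 25.5 CPM in P11 cells (log2 fold change 1.36 ± 0.07 SE, adjusted p = 2.30e-11, edgeR). The KRAB gene Zfp316 (ENSRNOG00000001094) was at 58.2, 52.7, 53.8 and 50.4 CPM at E21 and at 20.3, 22.4, 21.9 and 21.9 CPM in P11 cells (log2 fold change 1.31 ± 0.06 SE, adjusted p = 4.65e-12, edgeR). For both genes the lowest E21 library stood far above the highest P11 library. Zfp821 (ENSRNOG00000000262) was at 54.8, 52.1, 60.4 and 60.8 CPM at E21 and at 24.5, 24.98, 24.5 and 26.8 CPM in P11 cells (log2 fold change 1.18 ± 0.06 SE, adjusted p = 3.30e-11, edgeR). Zfp358 (ENSRNOG00000000974) was at 136, 138, 139 and 134 CPM at E21 and at 64.4, 65.6, 63.0 and 59.9 CPM in P11 cells (log2 fold change 1.11 ± 0.04 SE, adjusted p = 4.58e-13, edgeR). The libraries of the stages were separate for these genes as well, but Zfp358 lay near the fold threshold: tested against a log2 fold change of 1 with edgeR's glmTreat, its adjusted p was 0.0124, and that of Zfp821 was 0.00914. The nearest gene below the threshold was Zfp157 at 0.81.

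Among the 7 BTB genes, 4 were higher at E21 at the adjusted p (57.1%, against 33.8% of all genes tested). Past the fold threshold were 2 of them (28.6%, against 8.16%). None of the 7 was higher at P11, against 34.6% of all genes. Their median log2 fold change was 0.56. Besides Zbtb12 and Zbtb39, the genes that fell after E21 were Zbtb24 and Zbtb21. Zbtb24 (ENSRNOG00000000308), whose loss causes an immunodeficiency with unstable centromeres and whose product activates Cdca7, was at 24.9, 25.3, 25.9 and 24.6 CPM at E21 and at 16.7, 15.6, 15.3 and 16.96 CPM in P11 cells (log2 fold change 0.64 ± 0.07 SE, adjusted p = 1.27e-07, edgeR). Zbtb21 (ENSRNOG00000001623) was at 45.1, 44.0, 40.7 and 37.6 CPM at E21 and at 26.2, 26.2, 30.2 and 30.8 CPM in P11 cells (log2 fold change 0.56 ± 0.07 SE, adjusted p = 2.44e-06, edgeR). Both had every E21 library above every P11 library. The other 3 did not pass. Zbtb18 (ENSRNOG00000004423), which encodes the repressor RP58 of cortical neuron development, was at 34.6, 34.1, 36.8 and 29.4 CPM at E21 and at 32.3, 32.0, 30.1 and 30.3 CPM in P11 cells, with a log2 ratio of 0.12 ± 0.07 SE. Zbtb11 (ENSRNOG00000001613) ranged from 45.6 to 51.3 CPM at E21 and from 45.5 to 49.4 CPM in P11 cells, with a log2 ratio of 0.04 ± 0.05 SE, and Zbtb22 (ENSRNOG00000000476) from 47.0 to 51.6 and from 46.3 to 54.0 CPM, with 0.00 ± 0.06 SE. The libraries of the stages overlapped for these 3 genes, and the sign of the last 2 turned under other scalings.

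**Figure D3:**
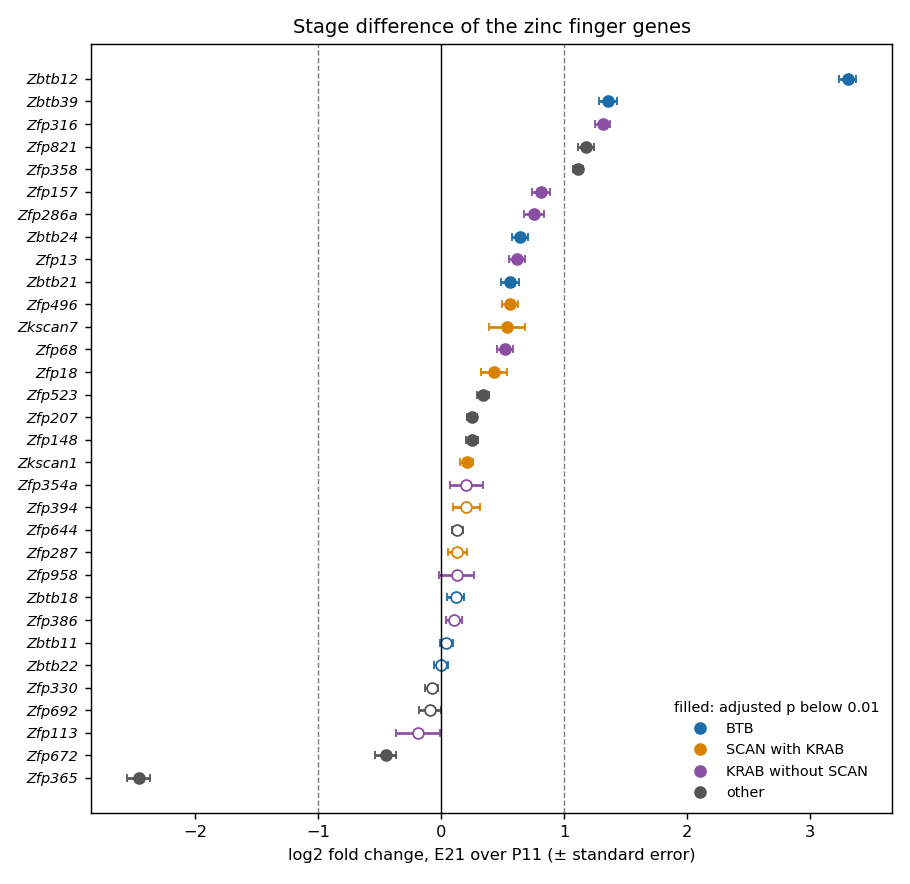
Log2 fold change, E21 over P11, of each of the 32 zinc finger genes with its standard error, coloured by domain group, with dashed lines at -1 and 1. Filled points passed an adjusted p below 0.01 (edgeR), and of these 18 lie right of 0 and 2 left of it.

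Of the 15 genes with a KRAB domain, 9 were higher at E21 at the adjusted p (60.0%, against 33.8% of all genes tested). None was higher at P11, against 34.6% of all genes. Of the 9 without a SCAN domain, 5 were higher at E21 at the adjusted p (55.6%) and none at P11. Their median log2 fold change was 0.52, and Zfp316 alone passed the fold threshold (11.1%, against 8.16% of all genes). Of the 6 with a SCAN domain, 4 were higher at E21 (66.7%) and none at P11, with a median of 0.32 and none past the fold threshold. Each share rests on few genes, beside 56.2% over all 32 genes. Zfp157 (ENSRNOG00000001323) was at 25.4, 27.1, 26.2 and 27.7 CPM at E21 and at 14.0, 16.8, 14.8 and 14.9 CPM in P11 cells (log2 fold change 0.81 ± 0.07 SE, adjusted p = 1.84e-08, edgeR). Zfp286a followed at 0.75 ± 0.08 SE, Zfp13 at 0.62 ± 0.06 SE and Zfp68 at 0.52 ± 0.07 SE. These genes had separate libraries. Among the SCAN genes, Zfp496, whose product binds the histone methyltransferase Nsd1, was 1.47-fold higher at E21, with a log2 ratio of 0.56 ± 0.06 SE, followed by Zkscan7 at 0.54 ± 0.14 SE, Zfp18 at 0.43 ± 0.10 SE and Zkscan1 at 0.21 ± 0.05 SE. Zkscan1 gives rise to a well-known circular RNA, and counts per gene do not separate circular from linear RNA in a library made without poly(A) selection. Zkscan1 lost its call with library size alone (adjusted p = 0.0145, edgeR), with upper-quartile scaling (0.0115) and without P11 replicate 3 (0.0140), and Zkscan7 without E21 replicate 1 (0.0105) or without P11 replicate 2 (0.0141).

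Of the 15 KRAB genes, 6 did not pass the adjusted p. They were Zfp354a (log2 fold change 0.20 ± 0.13 SE), first described in kidney, Zfp394 (0.20 ± 0.11 SE), Zfp287 (0.13 ± 0.08 SE), Zfp958 (0.13 ± 0.14 SE), Zfp386 (0.10 ± 0.06 SE) and Zfp113 (-0.19 ± 0.18 SE). Zfp113 had the fewest counts of the 32 genes, between 41 and 77 per library. Records of reads that align to several places were not counted for any gene, and KRAB genes have many close relatives, so reads shared with these are missing from the values. Their share of all records was 40.3% ± 2.04 at E21 and 34.7% ± 2.14 (SD, n = 4) at P11 (two-sided exact permutation test, p = 0.0286, the smallest possible with 4 libraries a stage, adjusted to 0.0571 over 4 library measures by Benjamini-Hochberg). Their part in the differences was not tested.

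The 10 genes with none of these domains had log2 fold changes from -2.46 for Zfp365 to 1.18 for Zfp821, with a median of 0.19. At the adjusted p, 5 were higher at E21 (50%, against 33.8% of all genes tested) and 2 at P11 (20%, against 34.6%). These shares rest on 10 genes. Zfp207 (ENSRNOG00000000236), whose product BuGZ binds Bub3 and microtubules at the mitotic spindle, was at 118, 121, 122 and 127 CPM at E21 and at 105, 101, 96.8 and 107 CPM in P11 cells. Every E21 library lay above every P11 library, but the difference was small, with a log2 ratio of 0.25 ± 0.04 SE (adjusted p = 5.30e-05, edgeR). Zfp148, which encodes a factor that binds GC-rich promoters, also had a log2 ratio of 0.25 ± 0.05 SE, and Zfp523, a relative of the activator Zfp143, had 0.34 ± 0.05 SE.

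Zfp672 (ENSRNOG00000002713) was the second gene higher at P11, with 13.3, 14.4, 13.3 and 14.9 CPM at E21 and 17.5, 20.2, 21.1 and 17.4 CPM in P11 cells (log2 fold change -0.45 ± 0.08 SE, adjusted p = 1.37e-04, edgeR). Its neighbour Zfp692 (ENSRNOG00000002682) overlaps it in RefSeq on GRCr8 and was at 18.1, 18.2, 20.7 and 22.5 CPM at E21 and at 18.1, 21.01, 22.3 and 22.9 CPM in P11 cells, with overlapping libraries and a log2 ratio of -0.09 ± 0.09 SE. Zfp330, a nucleolar protein gene, had -0.08 ± 0.05 SE. Zfp644 (ENSRNOG00000002112), a partner of the euchromatic histone methyltransferases, was at 110.9, 103.1, 107.1 and 104.1 CPM at E21 and at 92.3, 98.4, 102.5 and 94.4 CPM in P11 cells. Its E21 libraries lay above its P11 libraries by a narrow margin, and it did not pass (log2 fold change 0.13 ± 0.05 SE, adjusted p = 0.0135, edgeR).

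Over the 32 genes, the libraries of the stages were separate with E21 above for 20 genes, against 35.4% of all genes tested, and with P11 above for 2, against 35.9%, while 10 overlapped. The median coefficient of variation over the 32 genes was 6.04% at E21 and 6.24% at P11, and standard errors of the log2 fold change ran from 0.04 to 0.18. Together the 32 genes took 1460, 1435, 1460 and 1439 CPM in the E21 libraries and 987, 983, 981 and 987 CPM in the P11 libraries. The sum was higher in every E21 library than in any P11 library and varied little within a stage. Zbtb12 alone made up 13.0% to 13.3% of it at E21 and 1.63% to 2.23% at P11. Without Zbtb12 the sums were 1247 to 1270 CPM and 960 to 970 CPM.

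**Figure D4:**
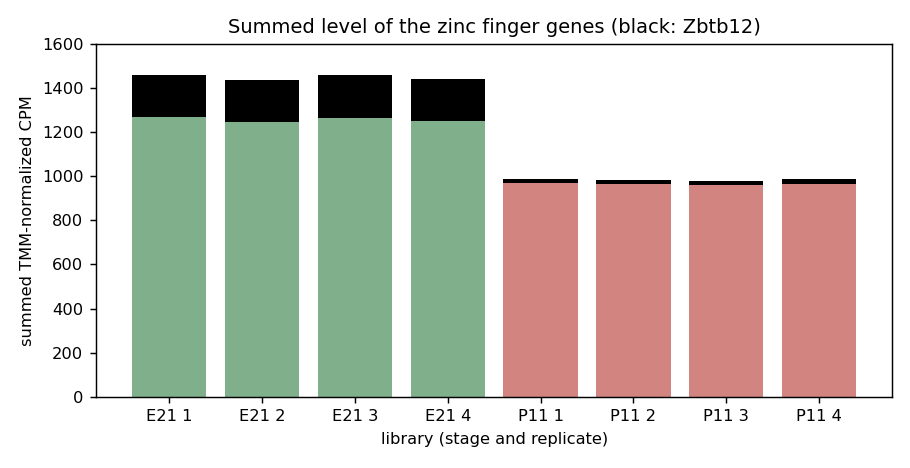
Summed TMM-normalized CPM of the 32 zinc finger genes in each library, with the part of Zbtb12 in black on top. The E21 bars reach between 1435 and 1460 CPM and the P11 bars between 981 and 987 CPM, and the stages stay apart without Zbtb12.

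Several members lie side by side in the genome, and neighbours did not always share their difference. By the gene order of RefSeq, all 32 symbols were found there, and Zfp287 with Zfp286a and Zfp692 with Zfp672 are direct neighbours among protein-coding genes. Zfp286a was higher at E21 with a log2 fold change of 0.75, while Zfp287 had 0.13 ± 0.08 SE and did not pass. Zfp672 was higher at P11 and Zfp692 did not pass. The difference between neighbours was not tested. Besides Zbtb12 and this last pair, Zfp394, Zfp113, Zbtb11 and Zfp148 overlap another protein-coding gene there (Hint1l2, Zscan21, Pcnp and LOC134480933). Their values are uncertain to the extent that reads of the pair were dropped or assigned to either gene. Records left out as ambiguous between genes made up 0.675% ± 0.045 of all records at E21 and 0.783% ± 0.018 at P11 (SD, n = 4). The two-sided exact permutation test gave p = 0.0286, adjusted to 0.0571 over 4 library measures by Benjamini-Hochberg. The part of these records in the differences was not tested.

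Partners of these proteins were examined from a list of 4 named genes. Of these, 2 were higher at E21 at the adjusted p, against 33.8% of all genes tested, and none at P11, against 34.6%. None passed both thresholds, against 8.16% and 16.5% of all genes. A list of 4 genes is too short to tell these counts from the shares over all genes. Hdac2, a histone deacetylase of corepressor complexes, was at 172, 184, 185 and 189 CPM at E21 and at 108, 97.3, 105 and 106 CPM in P11 cells (log2 fold change 0.81 ± 0.04 SE). Sumo2, a modifier used by the KRAB corepressor, had a log2 ratio of 0.45 ± 0.05 SE, and both had separate libraries. Tbl1x, a subunit of a corepressor complex, had -0.10 ± 0.05 SE and did not pass. Cdca7, the gene that Zbtb24 activates, had between 10 and 15 counts at E21 and between 1 and 15 at P11, and did not pass (log2 fold change 1.02 ± 0.47 SE, adjusted p = 0.0593, edgeR).

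Zinc finger transcription factors with other names held genes that were higher at either stage. Of 12 such genes, 4 were higher at E21 and 4 at P11 at the adjusted p, against 33.8% and 34.6% of all genes tested, so these shares were near the background. Past both thresholds were 1 at E21 and 4 at P11, against 8.16% and 16.5%, with no test of the list, from which some genes were left out. Gfi1, a repressor gene, was at 54.8, 42.4, 53.7 and 67.2 CPM at E21 and at 4.10, 5.56, 5.27 and 5.84 CPM in P11 cells (log2 fold change 3.37 ± 0.16 SE, adjusted p = 7.15e-09, edgeR), a difference of the size seen for Zbtb12. At P11, Prdm8 was higher with 9.04, 10.2, 10.9 and 8.48 CPM at E21 and 49.1, 42.8, 48.0 and 35.8 CPM in P11 cells (log2 fold change -2.17 ± 0.11 SE, adjusted p = 2.16e-10, edgeR). Bcl6, a BTB zinc finger repressor outside the symbol rule, was at 0.728 ± 0.227 CPM at E21 and 9.40 ± 1.95 CPM in P11 cells (SD, n = 4, log2 fold change -3.63 ± 0.22 SE), opposite in sign to the 4 Zbtb genes that passed. Prdm1, which encodes a transcriptional repressor, reached 3 counts at most in an E21 library and stood at 3.51 ± 0.712 CPM in P11 cells. Egr2, an immediate early gene, had 0.557 ± 0.227 and 3.32 ± 1.65 CPM. Klf3 (0.93), Prdm15 (0.55) and Yy1 (0.31) were higher at E21 at the adjusted p, under the fold threshold. Rest (0.46), Glis1 (0.37), Zfpm2 (-0.13) and Klf1 (-0.80) did not pass.

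**Figure D5:**
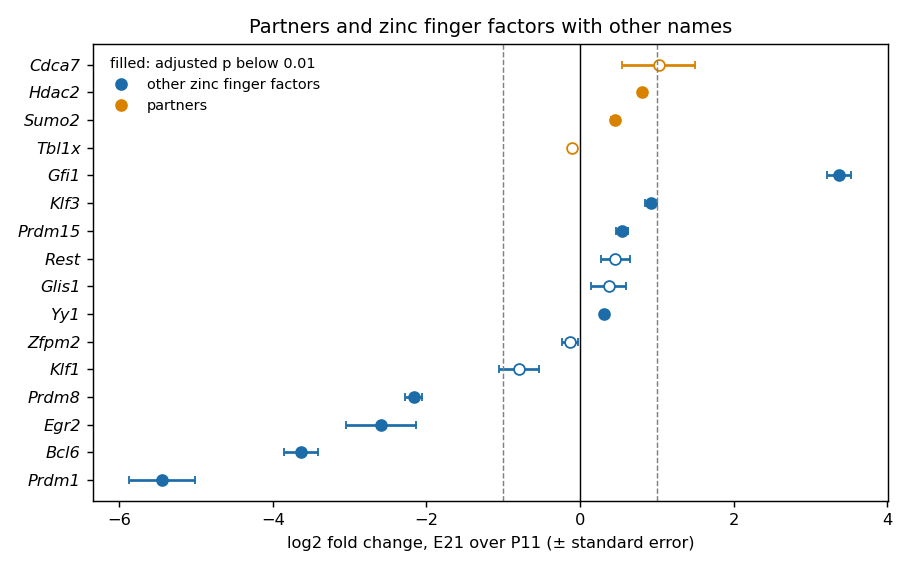
Log2 fold change, E21 over P11, with standard error, for 4 partner genes (orange) and 12 zinc finger factors with other names (blue), with dashed lines at -1 and 1. Filled points passed an adjusted p below 0.01 (edgeR), and the factors reach from 3.37 for Gfi1 to -3.63 for Bcl6 and beyond for Prdm1, whose E21 libraries had at most 3 counts, so that its fitted value depends on the prior count.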

How the data were processed

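Immunopanned RGCs of E21 and P11 rats were sequenced from 4 litters per stage. Per the labels and methods, the authors removed adapters (Cutadapt 1.16), checked read quality (PRINSEQ), mapped the reads to Rnor_6.0 (STAR 2.5.3a) and assigned them to genes (HTSeq 0.6.1). The deposited values are raw counts by Ensembl ID, with 1 table for a library, neither normalized nor pooled. The annotation release and the strand setting are not given in the sources used here. HTSeq's summary rows, between 51.7% and 58.4% of the records, name no gene and were left out of library sizes.

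Symbols came only from the ID and symbol columns of the study's supplementary gene table, which was held in part. Its fold changes, p-values and per-library values were not used. The RefSeq table paired 0 Ensembl IDs and was matched by symbol. Genes were filtered with filterByExpr, scaled by TMM and tested with edgeR 4.0.16 (quasi-likelihood, robust) in R 4.3.3, with Benjamini-Hochberg adjustment over the 14043 genes tested and the study's thresholds of 0.01 and 1 on the log2 scale. For the SE, the size of each fold change on the log2 scale was divided by the root of its F statistic. A floor of 3 counts is 0.152 to 0.219 CPM, which covers counting error only, as reads are not independent molecules. Exact permutation tests used scipy 1.17.1. In a simulation of the E21 against P11 comparison, 200 of 14043 genes, drawn from those above 1 CPM, were changed by a log2 fold change of 2. With both thresholds, edgeR called 200 with 0 unchanged genes called. Far fewer genes were changed than in the data, and the simulation does not cover calls at the adjusted p alone or near the fold threshold.

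Members, domain groups, lists and motifs were chosen with earlier results of these data known, and the motifs, the background of genes in the members' CPM range and the sum without Zbtb12 were added after their values were seen. Genes named are the members past both thresholds, the 4 largest changes in each direction, the 3 highest members, all BTB members, and listed partners and factors past both thresholds. Other genes were named after their values were seen. The alternatives were DESeq2 1.42.0, 3 other scalings, 2 other filters, glmTreat, a threshold of 0.05, a block for the replicate number and each library left out. Some genes of the lists are not reported here and were left out of their counts.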

Additional observations from a re-analysis of the deposited data

Results flagged for a closer look

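In groups of 4 libraries, a library was singled out where its gap to the nearest other library took more of the group's whole range than Dixon's 95% criterion allows. Of 64 groups, 32 genes at each stage, 3 were singled out, and chance gives about 1 in 20. Zfp287 was at 13.4 CPM in P11 replicate 1 against 14.9 to 15.0 CPM in the other P11 libraries. Zfp386 was at 24.9 CPM in E21 replicate 4 against 23.9 to 24.0 CPM in the others. Zfp113 was at 2.69 CPM in E21 replicate 2 against 3.08 to 3.14 CPM in the others. None of these 3 genes passed the adjusted p.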

How the results depend on the processing

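The counts of zinc finger genes past both thresholds, 5 higher at E21 and 1 at P11, were the same under every alternative run, except that glmTreat called 4 at E21. At the adjusted p alone, 17 or 18 were higher at E21, 19 with the threshold at 0.05, and 2 at P11. Their median difference on the log2 scale stayed between 0.20 and 0.27, and with each library left out it was 0.22 to 0.27. Over all genes, glmTreat called 668 higher at E21 in place of 1146, and at least 10 counts in every library left 1523 higher at P11 in place of 2316, with fewer genes tested. For single genes, 462 of 480 values kept their sign and their side of each threshold, and 5 lost a call. The sign of Zbtb11 turned with library size alone (-0.0132) and upper-quartile scaling (-0.0071). That of Zbtb22 turned with the DESeq2 Wald test (-0.0062), DESeq2 size factors (-0.0122), at least 10 counts in every library (-0.0371), library size alone (-0.0535), no filter (-3.8e-04) and upper-quartile scaling (-0.0480), and it ran from -0.0400 to 0.0463 with each library left out. The cause was not tested, and neither gene was called in any of these. The summed level without Zbtb12 differed by 293 CPM between the stages in place of 464 CPM. Correlations of the libraries' deviations between stages were weak, from -0.03 to 0.09 for same-numbered libraries and from -0.10 to 0.07 for the others. Those of replicates 2 (0.09) and 4 (0.08) were the highest of all, and no pairing by number was assumed. With the replicate number as a block, 5 zinc finger genes were higher at E21 and 1 at P11 past both thresholds, and 18 and 2 at the adjusted p. Over all genes, 1147 and 2316 passed both thresholds. With 4 libraries per stage, the standard error of most of the 32 genes was below 0.10, while genes of few counts such as Zfp113 were measured to 0.18.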

Other observations

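Zbtb39 lies next to the receptor gene Gpr182 in the RefSeq gene order. Gpr182 was at 5.15, 5.42, 4.88 and 6.29 CPM at E21 and at 2.02, 2.19, 2.35 and 1.80 CPM in P11 cells, with a log2 fold change of 1.38 ± 0.16 SE, beside 1.36 ± 0.07 SE for Zbtb39. No gene overlaps Zbtb39 in RefSeq on GRCr8, and whether reads of the neighbours were shared was not tested. Zfp358 lies next to Mcoln1, a lysosomal channel gene at 69.8 ± 1.99 CPM at E21 and 70.6 ± 1.47 CPM in P11 cells (SD, n = 4) with a log2 ratio of -0.02 ± 0.04 SE, and Zbtb22 lies next to Daxx, which encodes a histone chaperone, with 0.19 ± 0.05 SE. These neighbours were chosen after their values were seen.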
